A study of Mus musculus with 64 samples.

Results

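The transcript response to interferon-beta was followed as it decayed in macrophages. The cells were derived from bone marrow of mice of the BALB/c strain, males aged 7 to 8 weeks. The arrays compared were 2 of cells treated with IFN-beta at 10 U/ml for 24 h and 2 of cells treated for 8 h, with 2 of untreated cells at 0 h as the reference. These 6 of the 64 Affymetrix arrays in the series were chosen by their labels for strain, treatment, dose and time. All of the cells, the untreated ones included, were kept in CSF1, the growth factor of the macrophage lineage, at 10000 U/ml. The question was which changes present at 8 h had gone by 24 h, which were still there, and which appeared only late. The 1, 2 and 4 h arrays of the same course show how each gene reached its 8 h level. Matching 8 and 24 h arrays of BALB/c cells given interferon-gamma (10 U/ml) or LPS (5 ng/ml), the bacterial lipid-linked sugar that Tlr4 detects, serve as comparisons.

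Each array held labelled total RNA from its own culture well, and the labels do not say that the wells came from separate animals or preparations. P-values therefore measure the spread between wells, which may be technical. The labels hold no untreated wells at 8 or 24 h, so each change also includes whatever the cells did in culture over that time. In bulk RNA, fewer cells with a transcript and less of it per cell cannot be told apart.

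Before the results, a difference between arrays that the labels do not name has to be stated. On probe sets without a gene, 11 of the 64 arrays stood apart from the other 53. Replicate 2 of IFN-beta at 24 h was one of these, as were both arrays of IFN-beta at 4 h and replicate 2 of LPS at 24 h; none of the 0 and 8 h arrays of the IFN-beta course was. Across genes the replicates at 24 h correlated at r = 0.993 and differed by over 1 log2 in 120 genes, against 2 genes at 8 h and 7 at 0 h. Counts and key values are therefore also given without the arrays that stand apart, which leaves replicate 1 alone at 24 h with its spread assumed to be like that of the other groups. The 10 measured macrophage markers (Csf1r, Adgre1, Cd68, Lyz2 and others) summed to intensities between 36670 and 41521 in the 6 arrays, none lay below the 40th percentile of all gene values, and 1, the Fc receptor Fcgr1, was called from 8 to 24 h (-1.24). The summed markers of granulocytes went from 468 and 479 at 0 h to 399 and 415 at 8 h and to 297 and 318 at 24 h. Those of lymphoid cells went from 134 and 137 to 165 and 147 and to 214 and 189. At 24 h, 7 of 8 lymphoid and 10 of 12 granulocyte markers lay below that percentile. The median change of the lymphoid markers from 0 to 24 h was -0.19 log2, and 1, Cd4, was called above 0 h. The summed markers of erythroid cells and megakaryocytes went from 718 and 760 to 645 and 621 and to 515 and 454. Those of dendritic cells stayed between 158 and 174 and of stromal cells between 212 and 235, with 1 stromal marker, the cadherin Cdh5, called from 8 to 24 h (-1.23). The part of such cells in the results was not tested.

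Interferon-beta binds a receptor of the chains Ifnar1 and Ifnar2, whose kinases, Jak1 and Tyk2, activate transcription factors. A complex that includes Stat2 and Irf9 binds interferon-stimulated response elements (ISRE), while the response to interferon-gamma runs mainly through gamma-activated sites (GAS). The genes switched on encode antiviral proteins, GTPases that attack the compartments of pathogens, antigen-processing factors and chemokines, and some of them, such as Usp18 and Socs1, switch the receptor's signal off again.

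From 8 to 24 h, 284 genes fell (1.51% of the 18820 tested) and 152 rose (0.808%), called in limma's moderated test at an adjusted p under 0.05 with a log2 change of at least 1. The falls were the larger changes. Of the 284, 58 fell by at least 2 log2, 17 by at least 3 and 4 by at least 4, whereas 4 rises reached 2 log2 and the largest was 2.42. Of the genes that fell, 226 had risen at 8 h, none had fallen there and 58 had no call at 8 h. Of the genes that rose, 63 had fallen at 8 h, 3 had risen and 86 had no call. Both 24 h arrays lay beyond both 8 h arrays in all 436 genes called (2.32%), against 48.9% of all genes. Without the arrays that stand apart 291 genes fell, 241 of them the same, and 163 rose, 108 of them the same. Without replicate 1 at 24 h, which leaves the array that stands apart, 349 genes fell and 295 rose. At the edge of the call, Abhd16a and Ciart changed by -1.003 log2 and were called, while Slc25a12 (-0.998) and Sco1 (-0.997) were not.

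At 8 h, 427 genes were above 0 h (2.27%) and 305 below it (1.62%); with each array centred on its median the split was 488 and 220. At 24 h the counts were 152 above 0 h (0.808%) and 192 below (1.02%), and with each array centred they were 173 and 154, so the balance of directions turned with the scaling. Of the 427 risen genes, 176 (41.2%) fell from 8 to 24 h and were no longer called above 0 h. They are termed returned, which means no call against 0 h and not a level equal to it. Their median at 24 h was 0.22 log2 above 0 h. A further 50 (11.7%) fell and were still called above 0 h (partly returned). For 58 (13.6%) no fall was called and the level at 24 h was still called above 0 h (persisted), and 3, Lrrc14b, Ifitm6 and Slco4a1, rose further. The remaining 140 (32.8%) had neither call and are undecided. Without the arrays that stand apart the classes held 182 returned, 47 partly returned and 56 persisted genes, of which 155, 43 and 46 were the same. These classes use the same 8 h arrays that define the rise, so their sizes are a description.

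**Figure D1:**
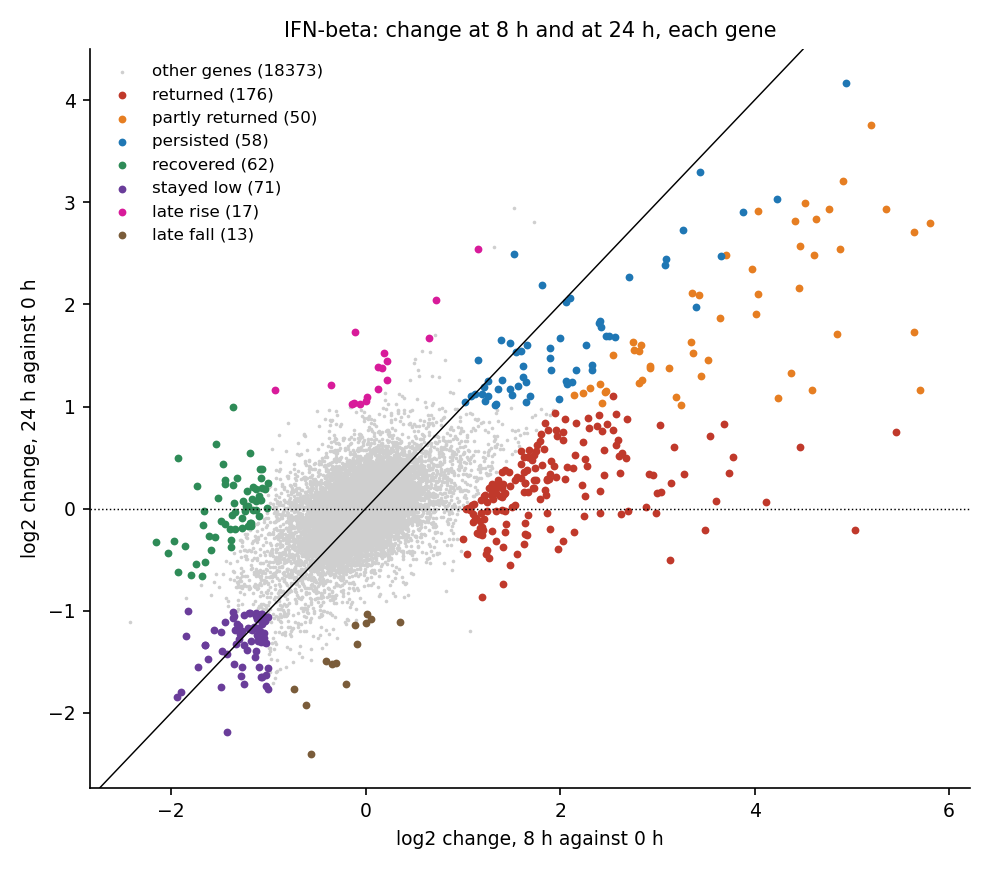
Log2 change at 8 h (x axis) and at 24 h (y axis) against 0 h for each of the 18820 genes; colours mark the classes with their number of genes, the solid line marks equal change at both times and the dotted line the 0 h level. The 176 returned genes lie near the dotted line and mostly above it, with a median of 0.22 and quartiles of -0.03 and 0.50 at 24 h. The 58 persisted and 50 partly returned genes lie further above it with medians of 1.46 and 1.61, the latter far to the right of the solid line.

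The letters before the transcription start of 6 genes, 2 from each of the returned, partly returned and persisted classes in that order, are shown because their fates between 8 and 24 h differ. They are RefSeq promoters of build GRCm38.p6, 250 bases up to the start, 5′ to 3′ on the gene's strand, picked after values and letters were seen. Capitals mark matches to an ISRE (GAAA and GAAA with any 2 bases between them, or TTTC and TTTC likewise on the other strand) or a GAS (TTC and GAA with any 3 bases between them, which reads the same on both strands), and a match is a description of letters, not a site shown to be used. The stretches are Cxcl10 at chr5:92348890-92349139 on the minus strand, Gbp5 at chr3:142496684-142496933 and Gbp7 at chr3:142530086-142530335 on the plus strand, Isg15 at chr4:156200819-156201068 on the minus strand, and Ifit3 at chr19:34583279-34583528 and Stat2 at chr10:128270248-128270497 on the plus strand.
Cxcl10: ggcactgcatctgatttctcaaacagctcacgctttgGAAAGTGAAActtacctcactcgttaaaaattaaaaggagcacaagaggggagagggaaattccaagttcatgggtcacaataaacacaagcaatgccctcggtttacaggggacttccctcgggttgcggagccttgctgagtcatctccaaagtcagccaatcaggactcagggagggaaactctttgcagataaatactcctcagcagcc
Gbp5: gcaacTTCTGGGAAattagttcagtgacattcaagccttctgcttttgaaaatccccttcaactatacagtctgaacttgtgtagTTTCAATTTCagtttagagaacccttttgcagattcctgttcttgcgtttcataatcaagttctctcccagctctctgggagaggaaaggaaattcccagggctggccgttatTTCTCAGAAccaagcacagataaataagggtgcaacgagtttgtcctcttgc
Gbp7: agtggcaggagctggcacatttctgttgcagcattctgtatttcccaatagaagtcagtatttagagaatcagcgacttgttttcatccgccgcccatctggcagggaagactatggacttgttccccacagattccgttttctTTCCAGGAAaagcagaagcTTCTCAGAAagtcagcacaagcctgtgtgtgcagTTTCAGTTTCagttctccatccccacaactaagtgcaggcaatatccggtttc
Isg15: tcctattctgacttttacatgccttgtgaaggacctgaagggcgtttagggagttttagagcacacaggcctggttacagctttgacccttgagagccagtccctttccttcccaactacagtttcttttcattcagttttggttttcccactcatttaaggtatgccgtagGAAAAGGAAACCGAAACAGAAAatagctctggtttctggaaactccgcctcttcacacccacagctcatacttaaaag
Ifit3: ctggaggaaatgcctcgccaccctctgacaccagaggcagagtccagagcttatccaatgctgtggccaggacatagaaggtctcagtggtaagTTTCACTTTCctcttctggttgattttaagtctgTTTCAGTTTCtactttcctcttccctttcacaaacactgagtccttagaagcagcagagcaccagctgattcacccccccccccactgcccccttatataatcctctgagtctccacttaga
Stat2: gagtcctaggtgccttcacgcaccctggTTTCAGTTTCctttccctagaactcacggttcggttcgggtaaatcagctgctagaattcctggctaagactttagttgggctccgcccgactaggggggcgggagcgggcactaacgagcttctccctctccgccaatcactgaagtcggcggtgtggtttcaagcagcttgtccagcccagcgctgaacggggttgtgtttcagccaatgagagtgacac
Gbp5 and Gbp7 hold 1 ISRE match and 2 GAS matches each. Isg15 holds 3 overlapping ISRE matches in 1 run, Ifit3 holds 2, and Cxcl10 and Stat2 hold 1 each, with no GAS match in these 4. All 3 fates thus include windows with an ISRE match.

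Among measured genes with a RefSeq promoter window, from 250 bases before to 50 after the start, an ISRE match stood in 16 of 132 returned genes (12.1%), in 17 of 34 partly returned genes (50.0%) and in 18 of 47 persisted genes (38.3%). It stood in 3.44% of all 32851 windows and in 3.91% of the 14749 measured genes with a window, and in 0 of 10 late-risen genes. A GAS match stood in 10.6%, 23.5% and 6.38% of the 3 classes, against 8.30% of windows and 9.06% of measured genes. An NF-kappaB-type match (GGGA and CC with any 4 bases between them, or GG and TCCC likewise on the other strand) stood in 36.4%, 35.3% and 19.1%, against 20.7% of windows and 26.8% of measured genes. Among genes lowered at 8 h, described below, it stood in 20 of 53 that recovered (37.7%) and 16 of 59 that stayed low (27.1%). The returned class thus had the lowest share of ISRE matches of the 3, and the persisted class the lowest shares of the other motifs; no test was made of these shares, and motifs can overlap one another.

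Cxcl10, which encodes a chemokine for activated T cells, had the largest fall among the named genes. Its log2 intensity was 6.64 and 6.82 at 0 h, 11.75 and 11.77 at 8 h, and 6.54 and 6.50 at 24 h. Both 24 h arrays lay below both 0 h arrays, although the difference from 0 h did not pass the test (-0.21, adjusted p = 0.74). The fall was -5.24 ± 0.26 log2 (SE, n = 2 per group, adjusted p = 7.9e-18 in limma), or 37.8-fold, and -5.22 without the arrays that stand apart. Cxcl11, a second ligand of the receptor Cxcr3, fell by 2.88 log2, and Ccl12, a monocyte chemokine, fell by 2.68 log2, both to levels not called above 0 h. These were the 3 falls among 20 measured chemokines, of which 7 had risen at 8 h.

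Of 15 listed interferon-induced GTPases, proteins that assemble on and break up the vacuoles of intracellular microbes, 8 were measured. All 8 had risen at 8 h, and 7 fell by 24 h. The median change over the 8 was -3.02 log2, beside -0.01 over all genes. Gbp5 stood at 4.40 and 4.64 at 0 h, 10.00 and 9.96 at 8 h, and 5.18 and 5.36 at 24 h. It fell by 4.71 log2 (SE 0.41, adjusted p = 3.3e-11), 26.1-fold, and its 24 h arrays lay above those at 0 h without a call (0.75, adjusted p = 0.31). Gbp3 behaved alike, with a fall of 3.86 log2. Gbp7, Gbp2, Gbp4 and Iigp1 fell by 3.16, 3.05, 2.92 and 3.00 log2 and were still called above 0 h by 1.08, 1.33, 2.71 and 2.80 log2. Gbp9 was the other partly returned member, and Irgm1, with a change of -0.64 (adjusted p = 0.029), was the member without a called fall. Members of this family, like those of the Ifit, Oas, Trim30 and Schlafen families below, have close copies, and probes shared between copies cannot be told apart here.

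Some surface molecules through which macrophages engage T cells were also lower at 24 h. Over the whole list of co-stimulation and adhesion genes the median change was -0.33 log2. Cd40, a receptor for T-cell help, stood at 6.21 and 6.37 at 0 h, 10.42 and 10.40 at 8 h, and 6.46 and 6.25 at 24 h, so the 24 h arrays overlapped the 0 h arrays. It fell by 4.05 log2 (SE 0.25, adjusted p = 4.5e-15), 16.6-fold. The early activation antigen Cd69 fell by 2.85, the inhibitory ligand Cd274 (PD-L1) by 1.62 and the adhesion molecule Icam1 by 1.08 log2, all without a call against 0 h; without the arrays that stand apart Icam1 changed by -0.95 and missed the minimum. Cd86, a ligand of Cd28, fell by 2.15 log2 and kept a rise of 1.30 over 0 h. These 5 were the falls among 16 members, 5 of which had risen at 8 h.

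Of 19 effector enzymes 5 fell, with a median change of -0.06 log2 over the list. Acod1, which makes the antimicrobial metabolite itaconate, stood at 8.39 and 8.27 at 0 h, 11.95 and 11.92 at 8 h, and 8.47 and 8.35 at 24 h, a fall of 3.53 log2 that left the 24 h and 0 h arrays overlapping. Nos2, the inducible nitric oxide synthase, fell by 3.27 log2 from 7.66 and 7.23 to 4.39 and 3.95. With only the arrays compared the SE was 0.208 (adjusted p = 8.6e-05 in limma). Nos2 was also called in the fit that pools the spread of all 32 groups, with an SE of 0.86 (adjusted p = 0.0057). Its call was lost without replicate 1 at 8 h (adjusted p = 0.068) and without replicate 2 at 24 h (0.061), and held with only the arrays that do not stand apart (-3.06, adjusted p = 0.012). Gch1, which supplies a cofactor of that synthase, fell by 1.29 log2. Outside this list, and named for the size of their falls, the matrix proteoglycan Vcan fell by 3.69, the matrix glycoprotein Thbs1 by 3.64 and the collagenase Mmp13 by 3.39 log2, none with a call against 0 h. The endothelial lipase gene Lipg fell by 4.55 log2, 23.4-fold, from 10.40 and 10.30 to 5.83 and 5.77, and stayed 1.16 log2 above its 0 h values of 4.67 and 4.62. Fgl2, a fibrinogen-like immunoregulatory protein, fell by 3.43 log2 and stayed 1.16 above 0 h.

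Among 28 cytokine and TNF-family genes, 10 had risen at 8 h and 5 fell by 24 h. The largest of these falls was that of Tnfsf10, the death ligand TRAIL, which stood at 4.84 and 4.22 at 0 h, 10.19 and 10.15 at 8 h, and 6.18 and 6.33 at 24 h. It fell by 3.91 log2 (SE 0.37, adjusted p = 1.7e-10), 15.1-fold, and stayed 1.73 log2 above 0 h (adjusted p = 0.00089). Il15ra, which presents interleukin-15, fell by 1.66, the angiogenic factor Vegfa by 1.38, Il18, an inflammasome substrate, by 1.26 log2, and all were returned, as was Csf1. Il1a stood at 3.95 and 3.89 at 8 h and 5.75 and 5.19 at 24 h. Its rise of 1.55 log2 was not called in the fit that pools the spread of all 32 groups (adjusted p = 0.22 in limma). With only the arrays compared, both 24 h arrays included, the adjusted p was 0.0033. Without the arrays that stand apart the rise was 1.83 log2.

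**Figure D2:**
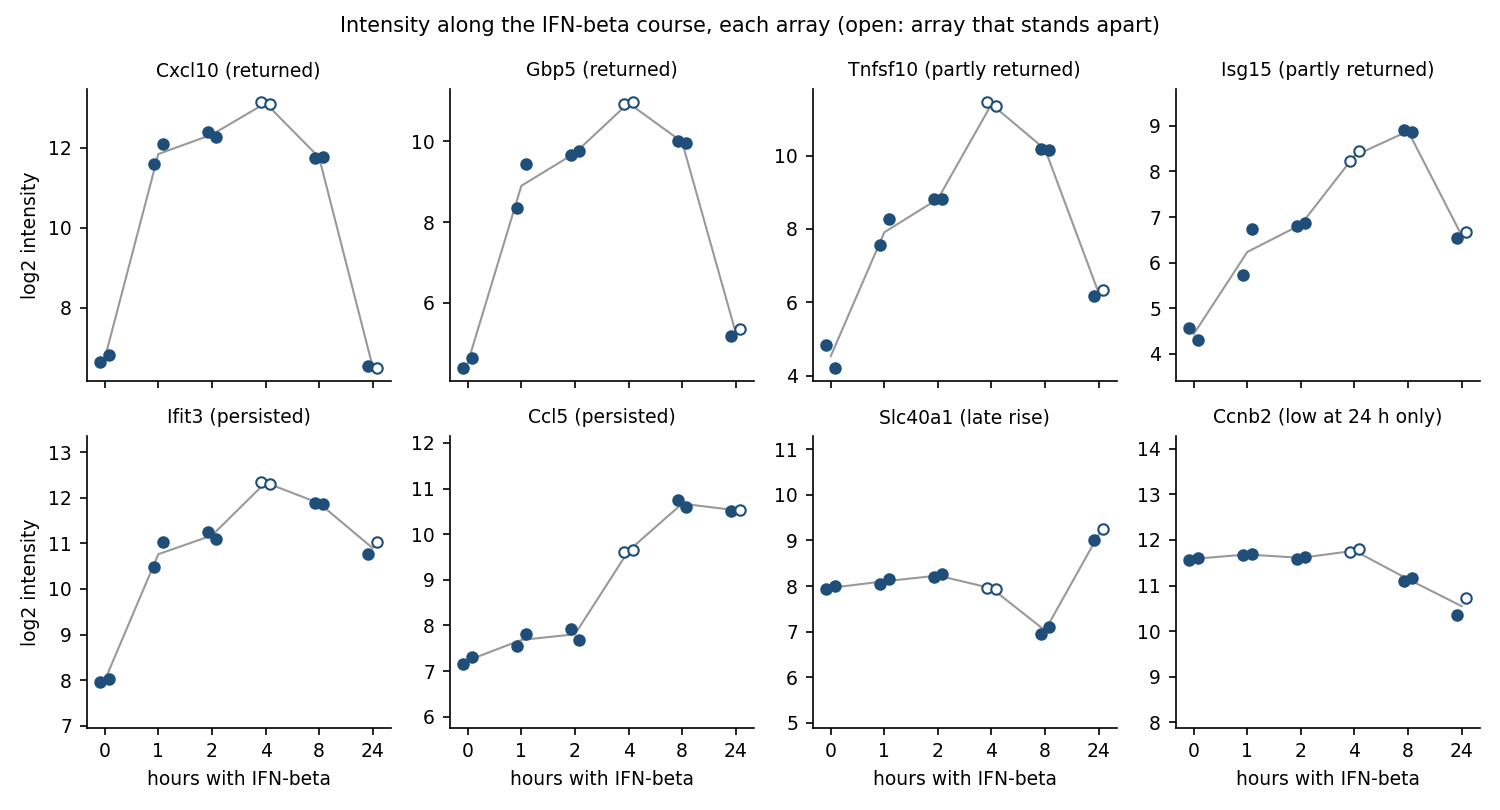
Log2 intensity (y axis) of 8 genes in each array at 0, 1, 2, 4, 8 and 24 h with IFN-beta (x axis, evenly spaced); points are arrays, open points the arrays that stand apart, and lines join the means of 2 arrays. Cxcl10 and Gbp5 are back near 0 h at 24 h, Tnfsf10 and Isg15 lie between their 8 and 0 h levels, Ifit3 and Ccl5 stay high, Slc40a1 is highest at 24 h and Ccnb2 lowest there.

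The antiviral effectors are proteins that bind, degrade or modify viral RNA and proteins. Of 30 measured, 28 had risen at 8 h, 17 fell from 8 to 24 h with a median change of -1.08 log2, and 22 were still called above 0 h at 24 h. By class, 15 were partly returned, 7 persisted (among them Ifit3, Bst2, Oas1a and Oasl2), 4 were undecided and 2, Adar and Eif2ak2, were returned. Isg15, a ubiquitin-like protein joined to other proteins, stood at 4.56 and 4.31 at 0 h, 8.91 and 8.86 at 8 h, and 6.53 and 6.67 at 24 h, with no overlap between times. It fell by 2.29 log2 (SE 0.36, adjusted p = 8.5e-06) and kept 48.6% of its 8 h rise on the log2 scale. Mx1, a GTPase that blocks virus replication, fell by 3.14 log2 and kept 35.3%. Rsad2 (viperin) fell by 2.11 and kept 47.6%, Mx2 fell by 1.93 and kept 52.2%, and the helicase Ddx60 fell by 1.84 and kept 45.4%. The count of falls was 17 with only the arrays that do not stand apart, and 11 without replicate 1 at 24 h.

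Sensors of foreign nucleic acid and of bacterial products followed a mixed course, with 12 of 20 risen at 8 h, 8 fallen from 8 to 24 h and 7 still above 0 h. The inflammatory caspase Casp4 fell by 1.65 and the peptidoglycan sensor Nod1 by 1.66 log2, and both were returned, as were Nod2 and Tlr3. The RNA helicase sensor Ifih1 (MDA5) fell by 1.58 log2 and kept 44.5% of its rise, and the DNA-sensor family member Ifi209 fell by 1.83 and kept 61.6%. Ddx58 (RIG-I), Dhx58, Ifi203 and Tlr7 were in the persisted class. In the PARP, TRIM and Schlafen families 15 of 17 had risen at 8 h, 6 fell and 9 stayed above 0 h; Parp12, an ADP-ribosyltransferase, fell by 1.11 log2 and was returned, and Trim30d fell by 1.44 and stayed 3.76 log2 above 0 h.

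Of 17 measured members of antigen processing and presentation by MHC class I, 9 had risen at 8 h and 5 fell by 24 h, and all 5 were returned. The peptide transporter subunits Tap1 and Tap2 fell by 1.44 and 1.76 log2, and Tapbpl, a relative of the loading factor Tapbp, by 1.77. The immunoproteasome subunit Psmb10 fell by 1.59, and Nlrc5, the transactivator of class I genes, by 2.00. Nlrc5 stood at 8.85 and 9.10 at 0 h, 11.23 and 11.18 at 8 h, and 9.56 and 8.85 at 24 h, so the 24 h arrays spanned those at 0 h. Of the nonclassical class I molecules, H2-T10 changed by -0.80 (adjusted p = 0.0003, below the minimum change). The immunoproteasome subunit Psmb8 changed by -0.74 (adjusted p = 2.7e-05), also below it. The loading factor Tapbp changed by -0.07 (adjusted p = 0.77). H2-T23, another nonclassical molecule, changed by -0.01 log2 (adjusted p = 0.98) and was still called above 0 h. Of 9 MHC class II genes only their transactivator Ciita was called, with a fall of 1.03 log2 that missed the minimum (-0.90) without the arrays that stand apart.

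Among 13 genes of interferon signalling, with a median change of -0.56 log2, 5 had risen at 8 h and 2 fell: the kinase Jak2 by 1.26 and the transcription factor Irf1 by 1.19 log2, both returned. Stat2 and Irf7, transcription factors that drive further interferon genes, were in the persisted class, with changes from 8 to 24 h of -0.96 (adjusted p = 0.0027, below the minimum change) and -0.05 (adjusted p = 0.96). None of the 10 feedback inhibitors was called from 8 to 24 h. Usp18, which removes Isg15 and blocks the receptor, stood at 10.14 and 10.16 at 0 h, 12.47 and 12.62 at 8 h, and 11.85 and 12.09 at 24 h, and remained 1.82 log2 above 0 h (adjusted p = 4.8e-06). Socs1, an inhibitor of the kinases, changed by -0.84 (adjusted p = 0.017) and was not called at 24 h against 0 h. In the NF-kappaB list 4 of 17 fell: Nfkbie, Relb, Nfkb2 and Bcl3, subunits and inhibitors of that factor, by 1.65, 1.34, 1.23 and 1.20 log2, with Bcl3 missing the minimum (-0.97) without the arrays that stand apart. Fos, called at 8 h, fell by 1.17 log2 and was the 1 call among 21 immediate early genes.

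The persisted class was led by genes with large rises left at 24 h. Ms4a4c, a member of a family of membrane proteins, stood at 6.66 and 6.65 at 0 h, 11.60 and 11.58 at 8 h, and 10.72 and 10.93 at 24 h, and was 4.17 log2 above 0 h (adjusted p = 8.2e-07). Ccl5, a chemokine for T cells and monocytes, stood at 7.16 and 7.30, then 10.74 and 10.59, then 10.51 and 10.54. Its 24 h arrays lay just below those at 8 h, with a change of -0.14 log2 (95% interval -1.71 to 1.43), and it was 3.29 log2 above 0 h (adjusted p = 0.0027). Ifit3, an antiviral RNA-binding protein, stood 2.90 log2 above 0 h (adjusted p = 2.4e-06) after a change of -0.98 from 8 h (adjusted p = 0.11). Slamf7, a receptor of the SLAM family, stood 2.45 log2 above 0 h after a change of -0.64 (adjusted p = 0.0067).

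The absence of a called fall is not the absence of a fall. Of the 58 persisted genes 51 had a change below 0, with a median of -0.38 log2 and a range from -1.42 to 0.97. The fit pools the spread of all 32 groups, and with only the arrays compared 3 of the 58 were called lower, so that 55 remained persisted and 3 became partly returned. Slfn1 changed by -1.20 log2 with an adjusted p of 0.19 over all arrays and 0.0029 with only those compared. Cxcl9, the third ligand of Cxcr3, changed by -1.18 with adjusted p-values of 0.055 and 0.010. Their 24 h arrays, 7.13 and 7.08 for Slfn1 and 6.40 and 5.87 for Cxcl9, all lay below those at 8 h, 8.24 and 8.37 for Slfn1 and 7.33 and 7.30 for Cxcl9.

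Over all 427 genes risen at 8 h, a median of 34.5% of the log2 rise was left at 24 h, with quartiles of 15.0% and 54.9%. At or below the 0 h level at 24 h were 51 genes, and 10 were at or above their 8 h level. The height of the rise and the call at 24 h went together. Of genes risen by 1 to 1.5 log2, 8.46% were still called above 0 h, then 19.8% of those risen by up to 2, 43.4% of those by up to 3, and 72.9% (43 of 59) of those by 3 or more. The median share left changed less, at 32.2%, 35.1%, 37.6% and 48.1% in that order, and the same share of a higher rise is a larger residue against the fixed minimum change.

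A partly returned gene has to fall by at least 1 log2 and stay at least 1 above 0 h, so none rose by under 2 log2 at 8 h. Its class is thus high at 8 and 24 h by definition. The rule sets no level at 1, 2 or 4 h, although those changes share the 0 h arrays. The partly returned genes had a median log2 rise of 1.70 at 1 h, 3.75 at 4 h and 3.58 at 8 h, and 30 of the 50 were called at 1 h (0.537% of all genes rose there). The returned genes stood at 0.32, 1.81 and 1.73 at those times, with 26 of 176 called at 1 h, and the persisted genes at 0.60, 2.04 and 1.90, with 14 of 58. Both arrays at 4 h stand apart, so the 4 h values rest on them alone. Genes chosen without any 8 or 24 h array were also examined. Over all genes 0.988% rose and 0.112% fell at 2 h, and 3.3% rose and 1.98% fell at 4 h. Of 634 genes risen at 2 or 4 h, 193 (30.4%) fell from 8 to 24 h, 2 rose and the median change was -0.66 log2, while among the 17803 genes without an early call 85 (0.477%) fell. Of the 186 genes risen at 2 h, a choice that uses no 4 h array, 89 (47.8%) fell, and without the arrays that stand apart 93 of 188 did.

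**Figure D3:**
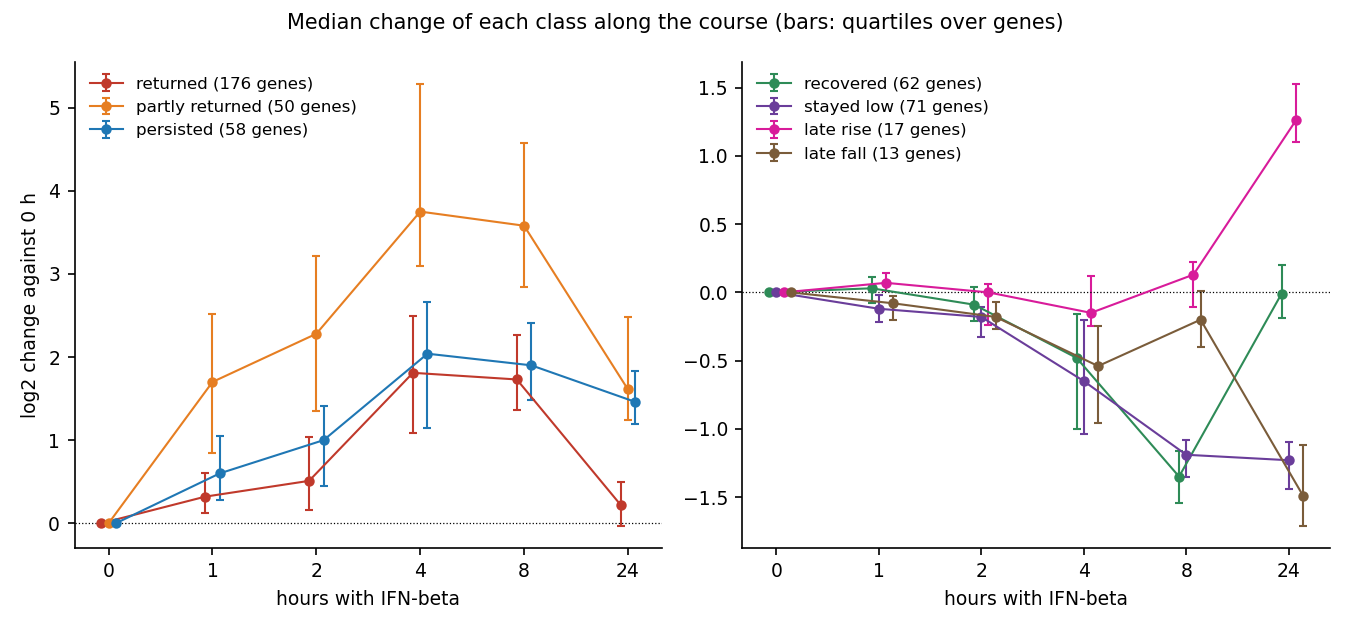
Median log2 change against 0 h (y axis) of the genes of each class at 1, 2, 4, 8 and 24 h with IFN-beta (x axis, evenly spaced), with bars from the lower to the upper quartile over genes. The partly returned genes peak at 3.75 at 4 h and stand at 1.61 at 24 h; the returned genes fall to 0.22; the stayed-low genes remain at -1.23 while the recovered genes are at -0.01.

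Genes lowered at 8 h recovered in part. Of 305, 62 (20.3%) rose from 8 to 24 h and were no longer called below 0 h (recovered), 1, Uck2, rose and was still called below, 71 (23.3%) had no call from 8 to 24 h and were still called below (stayed low), and 171 had neither call. With each array centred on its median 41 genes stayed low. The median share of the fall left was 53.2%. Ldlrad3, a membrane receptor-like protein, stood at 9.28 and 9.37 at 0 h, 7.31 and 7.49 at 8 h, and 10.16 and 9.48 at 24 h, where both arrays lay above all others. It rose by 2.42 log2 (SE 0.16, adjusted p = 2.7e-14). Abcg3, an ABC transporter, rose by 2.37, Cmah, which hydroxylates sialic acid, by 2.17, the potassium channel subunit Kcne3 by 1.96 and the B-cell scaffold Bank1 by 1.82 log2. Of 12 chemokine receptors 2 rose. Cxcr3, the receptor for Cxcl9, Cxcl10 and Cxcl11, rose by 1.61 log2 from 7.34 and 7.60 to 9.32 and 8.85, having had no call at 8 h. C5ar1, the receptor for complement C5a, rose by 1.59 from 8.55 and 8.53 to 9.92 and 10.35. Cx3cr1, the fractalkine receptor, stayed low: 9.57 and 9.36 at 0 h, 7.48 and 7.58 at 8 h, and 7.49 and 7.75 at 24 h. Bcl2, an inhibitor of apoptosis, recovered with a rise of 1.08 log2.

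Late changes were defined by 2 calls. A called rise above both 8 h and 0 h, with no call at 8 h, was found for 17 genes and a late fall for 13. A further 131 genes were called against 0 h at 24 h only, with no call from 8 to 24 h; their median change from 0 to 24 h was -1.10 log2, and they hold 14 of the 19 mitosis genes described below. Slc40a1, the iron exporter ferroportin, stood at 7.93 and 8.00 at 0 h, 6.94 and 7.11 at 8 h, and 9.01 and 9.24 at 24 h, with no overlap between times. It rose by 2.10 log2 from 8 h (SE 0.13, adjusted p = 4.5e-15) and by 1.16 over 0 h. Fxyd2, a regulatory subunit of the sodium pump, rose by 1.84, Cd28, the co-stimulatory receptor, by 1.56 and Opcml, a cell adhesion molecule, by 1.33 log2. Cdkn1c, an inhibitor of cyclin-dependent kinases, stood at 7.10 and 7.09, then 7.75 and 7.91, then 9.13 and 9.16, and its rise from 8 h was 1.32 log2. The betaine transporter Slc6a12 rose by 1.38 log2 with all arrays (adjusted p = 0.025) and by 1.36 without a call (adjusted p = 0.084) when the arrays that stand apart were left out. Of the 17 late rises, 9 were also found without those arrays, among 18. Late falls included Nptx1 (-1.84), the amino acid transporter Slc7a5 (-1.23), the fatty acid receptor Gpr84 (-1.17) and Ifi27 (-1.32), and 7 of the 13 were found without the arrays that stand apart, again among 13. Late rises numbered 58 and late falls 28 without replicate 1 at 24 h, and late rises 11 with the difference between arrays as a covariate.

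Of all the gene lists, mitosis had the most members lower at 24 h than at 0 h. All 19 measured were called below 0 h at 24 h, against 5 at 8 h, and none was called from 8 to 24 h, where the median change was -0.29 log2. Ccnb2, a mitotic cyclin, stood at 11.57 and 11.60 at 0 h, 11.11 and 11.17 at 8 h, and 10.36 and 10.73 at 24 h, with no overlap between times. It was 1.04 log2 below 0 h at 24 h (adjusted p = 0.0038). Cenpf, a kinetochore protein, was 1.74 and Cdc20, an activator of the anaphase-promoting complex, 1.59 log2 below. Of the 19, 16 were called with each array centred on its median and 12 without replicate 1 at 24 h. DNA replication genes went the other way in number: 10 of 21 were below 0 h at 8 h and 5 at 24 h (2 with each array centred), again with no call from 8 to 24 h. Rrm2, a subunit of ribonucleotide reductase, stood at 10.94 and 10.89, then 9.03 and 9.14, then 9.60 and 10.21. No untreated wells of the same age in culture show what these genes do without interferon.

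The same interval looked different after interferon-gamma. From 8 to 24 h 69 genes fell (0.367%) and 80 rose (0.425%), and 17 falls were shared with IFN-beta, which is 5.99% of the IFN-beta falls and 24.6% of the IFN-gamma falls. The 2 changes share no array, and their difference was tested directly. It was called lower with IFN-beta for 275 genes (1.46%) and higher for 126 (0.670%). The lower calls included 182 (64.1%) of the 284 IFN-beta falls and the higher calls 47 (30.9%) of the 152 rises. The difference holds the same IFN-beta change that chose these genes, so both shares are raised by that choice and are descriptions. Cxcl10 stood at 11.48 and 11.70 at 8 h and 10.35 and 10.43 at 24 h with IFN-gamma, a fall of 1.20 log2, and the difference between the changes was -4.04 ± 0.36 log2 (adjusted p = 4.4e-10). Lipg changed by 0.05 log2 with IFN-gamma, a difference of -4.60 (adjusted p = 1.1e-11). Gbp5 was 10.47 and 10.53 and then 9.65 and 9.66 with IFN-gamma, a difference of -3.86 (adjusted p = 1.3e-05). Ccl12 rose by 1.19 log2 with IFN-gamma and Dnase1l3, an extracellular nuclease, by 2.18, while both fell with IFN-beta.

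By list, the median change from 8 to 24 h with IFN-gamma was 0.03 log2 for the antiviral effectors, -0.24 for the GTPases, 0.21 for the sensors and 0.25 for MHC class I. Of these lists 9 of 30, 6 of 8, 9 of 20 and 8 of 17 members had a difference called lower with IFN-beta and none higher. Of 9 MHC class II genes 4 had a difference called lower; H2-Aa rose by 1.34 log2 with IFN-gamma and changed by 0.18 with IFN-beta. With only the arrays that do not stand apart, these counts were 11, 6, 9, 8 and 4.

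**Figure D4:**
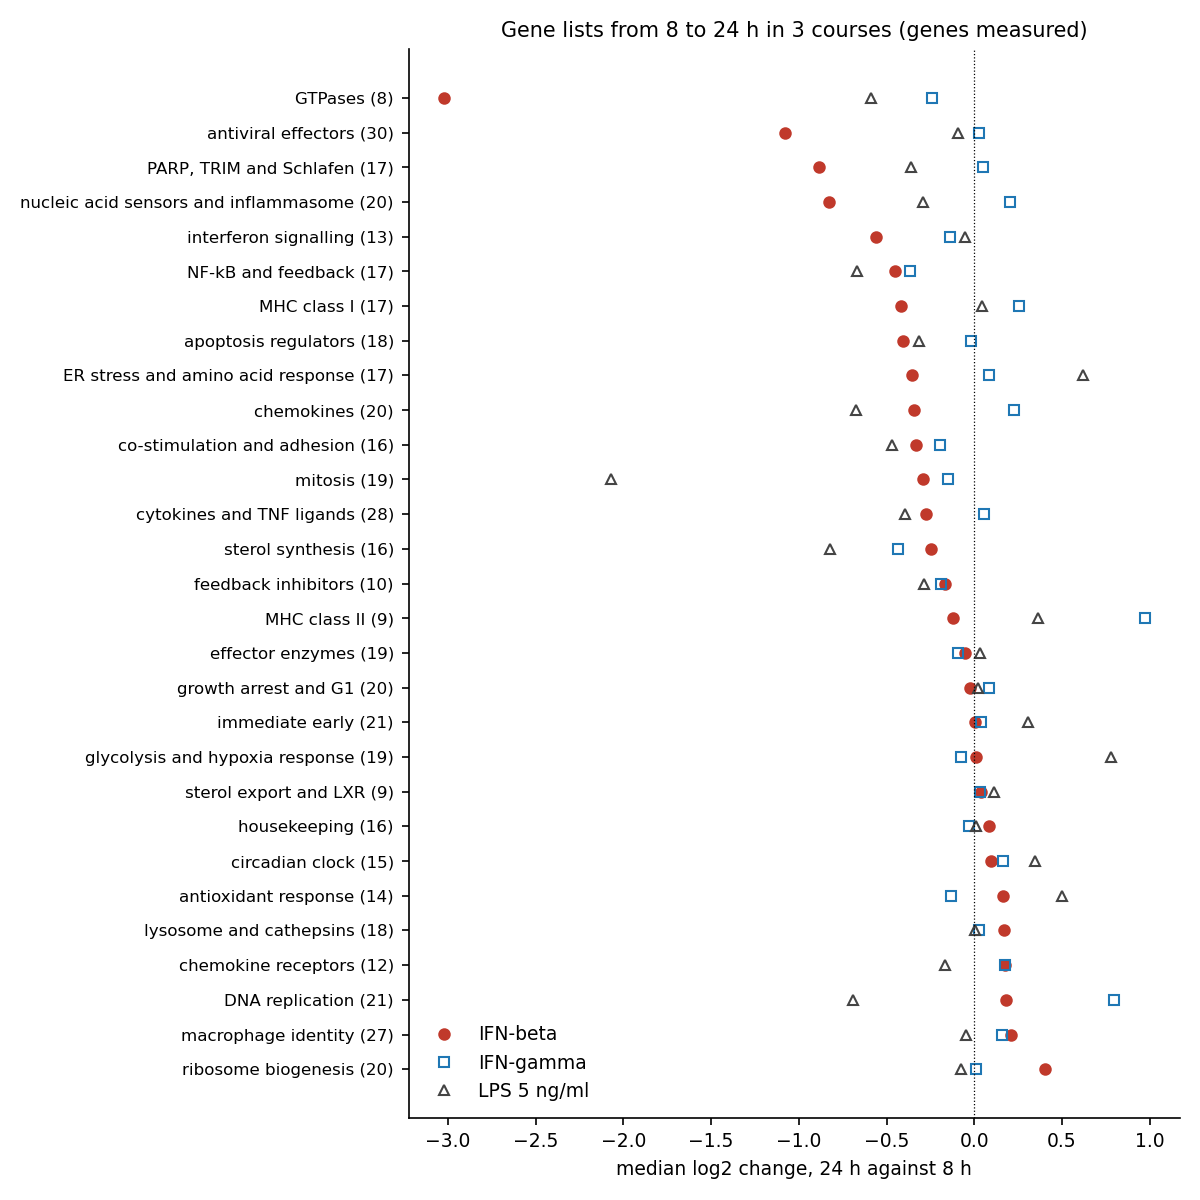
Median log2 change from 8 to 24 h (x axis) of each gene list (y axis, with the number of genes measured) with IFN-beta, IFN-gamma and LPS; medians are over genes and carry no error. With IFN-beta the GTPases lie lowest at -3.02 and the antiviral effectors at -1.08, against -0.24 and 0.03 with IFN-gamma; with LPS the mitosis list lies lowest at -2.07.

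After LPS, which reaches the interferon genes through Tlr4, many more genes moved: 524 fell (2.78%) and 617 rose (3.28%) from 8 to 24 h. They shared 77 falls with IFN-beta (27.1% of the IFN-beta falls, 14.7% of the LPS falls) and 49 rises (32.2% and 7.94%). The difference between the changes was called higher with IFN-beta for 482 genes (2.56%) and lower for 523 (2.78%). The lower calls included 114 (40.1%) of the IFN-beta falls and the higher calls 53 (34.9%) of the rises. Both shares are likewise raised by choosing genes on the IFN-beta change. Replicate 2 of LPS at 24 h stands apart as well; without the arrays that stand apart the counts were 523 higher and 591 lower.

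For 3 interferon-response genes the change differed from that with IFN-beta as follows. Cxcl10 stood at 12.82 and 12.80 at 8 h and 11.61 and 11.60 at 24 h with LPS, and its difference was -4.03 ± 0.36 log2 (adjusted p = 8.1e-11). Acod1 stood at 13.23 and 13.16 and then 13.17 and 13.30, a change of 0.04 log2 and a difference of -3.56 (adjusted p = 3.8e-09). Isg15 stood at 9.30 and 9.19 and then 9.01 and 8.99, a difference of -2.04 (adjusted p = 0.0041). The median change with LPS was -0.59 log2 for the GTPases and -0.09 for the antiviral effectors, and the difference was called lower with IFN-beta for 6 of 8 and 7 of 30 members, or 5 and 5 without the arrays that stand apart. The chemokines went the other way in number: 8 of 20 fell with LPS (median -0.67 log2) against 3 with IFN-beta (-0.34), and the difference was called higher with IFN-beta for 5 and lower for 2. Cd40 fell in all 3 courses, by 4.05 log2 with IFN-beta, 1.18 with IFN-gamma and 1.71 with LPS.

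The mitotic genes separated IFN-beta from LPS in the other direction. Against IFN-gamma no difference was called for any of the 19, with medians of -0.29 log2 with IFN-beta and -0.15 with IFN-gamma. All 19 fell with LPS from 8 to 24 h, with a median of -2.07 log2, and for 18 the difference was called higher with IFN-beta (17 without the arrays that stand apart). Ccnb2 with LPS went from 10.60 and 10.53 to 6.00 and 5.72, a difference of 4.11 ± 0.36 log2 (adjusted p = 3.1e-11). Mrc1, the mannose receptor, stood at 9.38 and 9.37 at 8 h and 10.04 and 10.06 at 24 h with IFN-beta, and at 9.10 and 8.99 and then 5.50 and 5.44 with LPS, a difference of 4.25 (adjusted p = 4.6e-18).

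**Figure D5:**
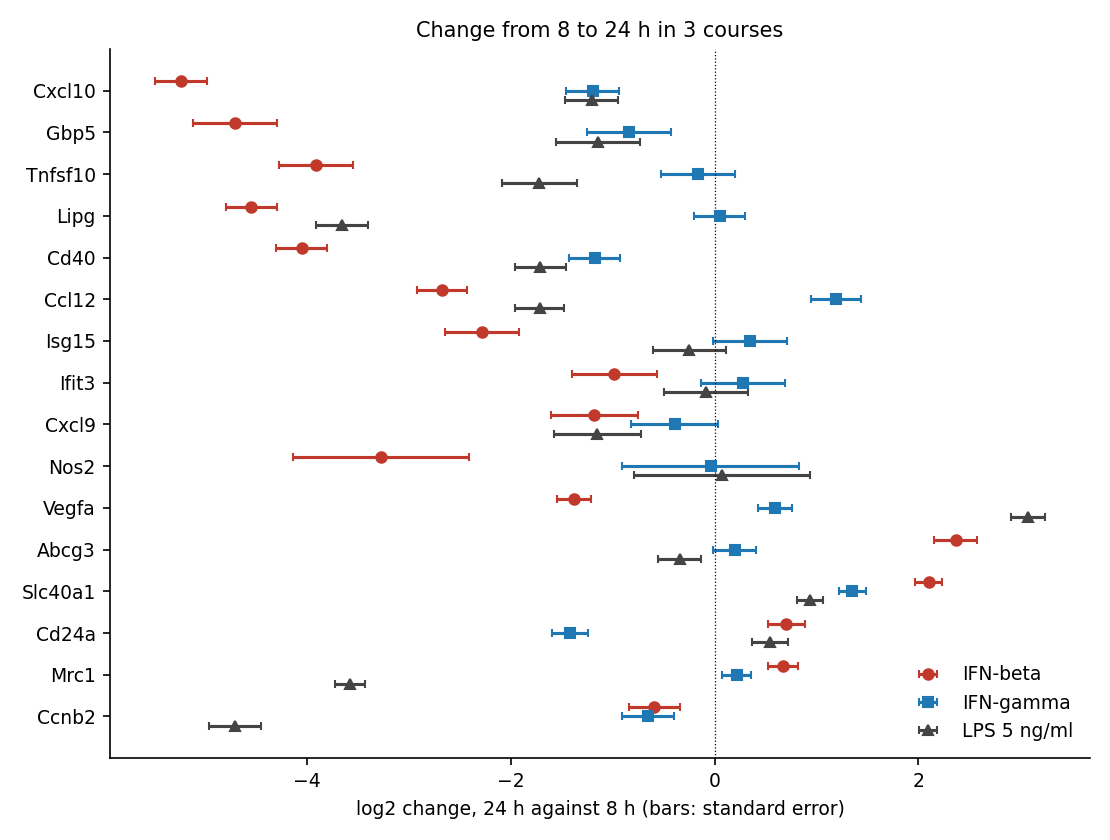
Log2 change from 8 to 24 h (x axis) of 16 genes (y axis) with IFN-beta, IFN-gamma and LPS; points are differences between means of 2 arrays and bars the standard error from the fit of all arrays. Cxcl10 changes by -5.24 with IFN-beta against -1.20 and -1.21 with IFN-gamma and LPS, and Ccnb2 by -0.59 against -0.65 and -4.71.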

How the data were processed

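Total RNA of bone-marrow macrophages was measured on Affymetrix arrays, 2 per group, 64 in all. The deposited values are linear intensities from 2.49 to 17782, with array medians from 25.6 to 29.0, and per the submitters' processing notes they were made with Affymetrix Expression Console 1.1. The background correction, normalisation and probe-set definitions are not given in the sources used here. The number of arrays limits the precision.

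The log2 of each deposited intensity was taken, with no further normalisation. Of 35556 probe sets, 21218 carried 1 gene symbol, 1881 several and 12457 none; the brightest probe set stood for each of 1386 genes with several, leaving 18820 genes. Some interferon-response genes are not analysed here. All 64 arrays were fitted in limma 3.58.1 (R 4.3.3, with the data.table package, version 1.17.8) with 32 group means, without a replicate block. Benjamini-Hochberg adjustment ran across the 18820 genes, and a call needed an adjusted p under 0.05 and a log2 change of at least 1. Classes combine the calls of 8 h against 0 h, 24 h against 8 h and 24 h against 0 h, and differences between courses are contrasts of the changes from 8 to 24 h. The scripts were tested on simulated data.

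The members, the 35 gene lists and the tests were chosen with earlier results of these data known. Genes were named by a rule: the 14 largest falls and rises with arrays that do not overlap, the 8 largest changes per class (for persisted, stayed-low and undecided genes from 0 to 24 h), the 8 largest differences in each direction between courses, and for each list at most 5 members, those that changed most from 8 to 24 h. Members named to fill a class or a count, such as Irf7, Tlr3 and H2-T23, were chosen after their values were seen, as were the motifs, the promoters and the setting without the arrays that stand apart. Replicate numbers did not pair the samples: over 15 pairs the correlation of deviations ran from -0.099 to 0.102.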

Additional observations from a re-analysis of the deposited data

Results flagged for a closer look

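Groups held 2 arrays each, too few to ask whether 1 array lies far from the rest of its group. What drew attention were changes from 8 to 24 h that differed between IFN-beta and the other stimuli in a direct limma test of the difference. Against IFN-gamma, 126 genes had a higher change with IFN-beta and 275 a lower one, and against LPS 482 and 523. Such a difference can arise from the change in either course, so changes with IFN-beta are given below as well.

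Against IFN-gamma, the lower differences were led by the lipase gene Lipg (-4.60 log2), the chemokines Cxcl10 (-4.04) and Ccl12 (-3.87), the GTPase Gbp5 (-3.86), the nuclease Dnase1l3 (-3.77), the death ligand Tnfsf10 (-3.75), Fgl2 (-3.59) and the scaffold protein Iqgap2 (-3.56). The higher differences were led by the protease inhibitor Serpinb9b (2.57), the adhesion protein Igsf11 (2.40), P-selectin, Selp (2.34), and Shisa9 (2.31). Next were Abcg3 (2.17), Cd24a (2.13), Serpinb8 (2.04) and the GTPase Rhoj (2.01). From 8 to 24 h with IFN-beta, the genes named as lower changed by -1.59 (Dnase1l3) to -5.24 log2 (Cxcl10). Those named as higher changed by -0.29 (Selp) to 2.37 (Abcg3), with Serpinb9b at 0.04.

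Against LPS, the higher differences were those of the mannose receptor Mrc1 (4.25), the cyclins Ccnb2 (4.11) and Ccna2 (3.86), Ckap2l (3.72), Pclaf (3.64), the mitotic kinase Plk1 (3.60), the transcription factor Gfi1 (3.58) and Slc9a9 (3.51). The lower ones were those of Vegfa (-4.46), Ly6i (-4.44), Thbs1 (-4.40), the cytokine receptor Il21r (-4.32), Cxcl10 (-4.03), the pseudokinase Trib3 (-3.72), Susd2 (-3.56) and Acod1 (-3.56). In that order, their changes from 8 to 24 h with IFN-beta were -1.38, -0.06, -3.64, -1.53, -5.24, -0.60, -0.42 and -3.53 log2. The genes named as higher changed with IFN-beta by -0.59 (Ccnb2) to 0.67 (Mrc1), with Gfi1 at -0.01. These named differences were also called with only the arrays that do not stand apart.

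Probe sets without a gene were outside the comparisons. With every probe set fitted, 23 of them were called higher and 107 lower from 8 to 24 h.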

How the results depend on the processing

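Of the 274 named results, none that was called in the main fit changed direction under the alternatives run for it. Changes of direction were not counted for named results without a call. Other called genes were not followed one by one. Of 4495 values of the named genes under the alternatives, 4276 kept their side of the threshold, 163 passed it in addition and 56, of 21 genes, lost the call. With only the arrays that do not stand apart, 11 lost it: Slc6a12, Gpc1, Slfn4, Ciita, Icam1, Kynu, Bcl3, Cebpb, Ciart, Chac1 and Pml.

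With no minimum change, the counts higher and lower were 1658 and 1334 from 8 to 24 h, 1496 and 2085 at 8 h, 1034 and 1124 at 24 h, 568 and 614 against IFN-gamma, and 1172 and 1421 against LPS. The classes then held 614 returned, 220 partly returned, 311 persisted, 317 undecided after a rise, 808 recovered, 552 stayed-low, 265 late-risen and 173 late-fallen genes, and 696 early-risen genes fell. With a minimum of 1.5-fold, 799 genes rose and 747 fell from 8 to 24 h, and the same classes held 383, 111, 148, 247, 376, 348, 103 and 81. With every probe set, 454 fell from 8 to 24 h, 232 were above 0 h at 24 h, and 78 were partly returned, 212 undecided after a rise and 27 late-risen. Centring left 41 stayed-low genes, and a covariate for the difference between arrays left 11 late rises.

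Leaving out 1 array at a time gave 136 to 295 rises and 277 to 349 falls from 8 to 24 h, 142 to 240 genes above 0 h at 24 h and 180 to 229 below, and 421 to 435 above and 274 to 360 below at 8 h. It gave 105 to 215 higher and 245 to 301 lower against IFN-gamma, and 467 to 532 and 470 to 620 against LPS. Returned genes numbered 169 to 182, partly returned 42 to 50, persisted 53 to 75, undecided after a rise 125 to 151, recovered 59 to 88, stayed low 65 to 79, late-risen 14 to 58 and late-fallen 13 to 28, and early-risen genes that fell 187 to 218. The highest counts of late changes and of rises came without replicate 1 at 24 h, which also gave 215 higher against IFN-gamma; the cause was not tested. With the replicate number as a block, which the labels do not tie to shared cultures, 152 genes rose and 284 fell from 8 to 24 h, and no count moved by over 1.5 times.

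Limits: 2 wells per time, no untreated wells at 8 or 24 h, and 1 of the 2 arrays at 24 h stands apart. Signals near background understate changes, and the 40th percentile of gene values was 4.49 log2.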

Other observations

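Of 20 genes of growth arrest and the G1 phase 3 fell from 8 to 24 h: the cyclin Ccnd2 by 1.41 log2 and the stress-response genes Gadd45b and Gadd45g by 1.32 and 1.19, with a median of -0.02 over the list. Of 18 apoptosis regulators 3 fell, Daxx (-1.57), the necroptosis effector Mlkl (-1.25) and Pml (-1.04; -0.76 without the arrays that stand apart), and Bcl2 rose. Ribosome biogenesis genes had no call among 20, with a median of 0.40 log2 (0.28 without the arrays that stand apart); Wdr12, a factor of large-subunit assembly, changed by 0.78 (adjusted p = 0.0014 in limma) and the RNA polymerase I subunits Polr1b and Polr1a by 0.74 (adjusted p = 8.2e-05) and 0.68 (adjusted p = 3.6e-06). Of 17 genes of the ER stress and amino acid response 1 fell, Chac1, which degrades glutathione (-1.01; -0.89 without the arrays that stand apart). In the same list the serine synthesis enzyme Psat1 changed by -0.88 and the transcription factor Atf4 by -0.74, both under the minimum change. With LPS 4 members of that list rose, and the difference was called lower with IFN-beta for 9 of 17.

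Among 15 circadian clock genes, Npas2, an activator of the clock, rose by 1.01 log2 and the repressor Ciart fell by 1.00, both near the minimum change. Arntl, the partner of Npas2, changed by 0.62 (adjusted p = 0.00089) and Per1, a repressor, by -0.67 (adjusted p = 0.049). Ciart was not called without the arrays that stand apart, and Npas2 was not called with each array centred on its median.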
